A study of Homo sapiens with 4 samples.

Results

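The 10 genes described here encode secreted factors of blood and lymph vessel growth: VEGFA, VEGFB, VEGFC and PGF of the vascular endothelial growth factor family, PDGFA, PDGFB and PDGFC of the platelet-derived growth factor family, ANGPT1, ANGPTL4 and FGF2. They were chosen by name, by matching the Ensembl identifier to the symbol, with earlier results of these data known, and the rule for membership uses no measured value. All 10 were found among the 58735 genes of the count table. RNA-seq counts were available for 2 human triple-negative breast cancer (TNBC) lines, MDA-MB-231 and SUM159, a tumour class that lacks the oestrogen and progesterone receptors and amplified ERBB2. Each line was treated for 72 h with 1 µM mebendazole (MBZ), a benzimidazole anthelmintic that binds tubulin, or with DMSO, the solvent, as the control. Each of the 4 conditions had 1 library, so no difference within a line has a replicate check, and an interval given for a count covers the error of counting alone. Such intervals take each read as an independent molecule, which PCR copies are not. The lines were grown in different media, DMEM for MDA-MB-231 and Ham's medium with insulin and hydrocortisone for SUM159, so line and medium cannot be told apart.

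Ligands of the VEGF family act on the endothelial tyrosine kinases FLT1, KDR and FLT4, with neuropilins as co-receptors, and ligands of the PDGF family act on PDGFRA and PDGFRB, which are carried by pericytes, smooth muscle cells and fibroblasts. VEGFA is the principal inducer of sprouting of blood vessels and VEGFC that of lymph vessels, while VEGFB and PGF bind FLT1. Tumour cells commonly secrete such ligands and leave the receptors to the cells of the stroma, and transcription of VEGFA is a classical response to hypoxia-inducible factors.

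Promoter sequences of RefSeq (GRCh38.p14) were matched for 6 of the 10 ligands, VEGFB, VEGFC, PGF, PDGFA, ANGPTL4 and FGF2. Those of VEGFA, PDGFB, PDGFC and ANGPT1 are named only. Shown are the 250 bases before the RefSeq start of VEGFB and VEGFC, a pair from one family that stood on opposite sides of their DMSO level in both lines, and of ANGPTL4, which stood on opposite sides in the 2 lines. Each is read 5′ to 3′ on the strand of the gene. Capitals mark matches on either strand to the GC box GGGCGG, to ACGTG, the core of the hypoxia response element, and to the TATA box TATAAA. The VEGFB sequence lies at chr11:64234334-64234583 (plus strand), the VEGFC sequence at chr4:176792923-176793172 (minus strand) and the ANGPTL4 sequence at chr19:8363905-8364154 (plus strand). The ANGPTL4 window ends just before its canonical transcript but lies inside the gene as GENCODE bounds it, where other transcripts begin farther upstream, and positions are counted from the RefSeq start.
VEGFB: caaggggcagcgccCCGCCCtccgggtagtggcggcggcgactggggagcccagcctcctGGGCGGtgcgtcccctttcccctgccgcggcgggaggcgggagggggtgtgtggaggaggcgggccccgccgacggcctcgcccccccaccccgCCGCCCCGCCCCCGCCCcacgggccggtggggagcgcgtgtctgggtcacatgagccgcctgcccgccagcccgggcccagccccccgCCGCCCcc
VEGFC: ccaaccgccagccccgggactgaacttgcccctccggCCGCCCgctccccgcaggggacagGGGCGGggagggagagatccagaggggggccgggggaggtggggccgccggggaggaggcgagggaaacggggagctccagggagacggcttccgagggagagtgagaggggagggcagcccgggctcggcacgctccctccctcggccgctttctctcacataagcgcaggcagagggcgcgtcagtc
ANGPTL4: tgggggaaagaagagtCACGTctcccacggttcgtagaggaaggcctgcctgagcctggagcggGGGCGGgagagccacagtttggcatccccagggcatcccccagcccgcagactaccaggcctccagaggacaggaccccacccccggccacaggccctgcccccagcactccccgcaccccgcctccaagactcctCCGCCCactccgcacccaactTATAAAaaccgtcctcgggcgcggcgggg
The VEGFB sequence held 6 GC boxes, of which the first 2 of the run of 3 share 1 base, and 82.8% of its bases were G or C. The VEGFC sequence held 2 GC boxes at a G and C content of 74.0%. The ANGPTL4 sequence held 1 hypoxia response element core at position -234 from the start, 2 GC boxes and a TATA box at position -29. Matches of different motifs did not overlap in these sequences. Of the 35116 promoter windows of this length in the table, 42.6% held a GC box, 18.5% the hypoxia response element core and 10.7% a TATA box. Another motif searched on both strands, the AP-1 site TGANTCA, was held by 6.57% of the windows and by none of the windows of the 6 ligands. Windows of all 6 ligands held at least 1 GC box, and among them the hypoxia response element core and the TATA box were found in ANGPTL4 alone. A match describes letters in this window and is not evidence of binding.

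The libraries held between 17143139 and 24897586 counted reads, and 3 counts corresponded to between 0.12 and 0.175 CPM, the counts scaled by library size. Levels below are CPM after TMM scaling within a line, so CPM set side by side across lines were scaled separately, while the log2 differences between the lines under DMSO used TMM over all 4 libraries. A gene was compared in a line when its mean over the 2 libraries reached 10 counts. It was called higher or lower when it differed at least 1.5-fold. VIM, a mesenchymal marker, was abundant in all 4 libraries (20703 to 54409 counts). CDH1, the epithelial cadherin, had 0 to 12 counts. EPCAM, another epithelial marker, had 144 and 190 counts in MDA-MB-231 and 6 and 9 in SUM159, DMSO first. PGR had 0 counts in every library, and ESR1 had at most 2 counts apart from 18 in the MBZ-treated SUM159 library. ERBB2 was counted in all 4 libraries (1216 to 1996 counts). Of the 8 endothelial markers checked, CDH5, EMCN, CLDN5 and TEK had at most 6 counts in any library. The others were counted. PECAM1 had 365 and 328 counts in MDA-MB-231 and 655 and 825 in SUM159, DMSO first. ERG had 0 counts in MDA-MB-231 and 79 and 151 in SUM159. VWF had 10 to 21 counts and TIE1 2 to 52. The summed level of the 8 went from 17.1 to 18.9 CPM in MDA-MB-231 and from 46.9 to 50.9 CPM in SUM159, of which most was PECAM1. The summed level of 4 leukocyte markers went from 0.35 to 1.44 CPM in MDA-MB-231 and from 13.0 to 3.002 CPM in SUM159, nearly all of it PTPRC in SUM159, and the other 3 had at most 3 counts in any library.

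VEGFA (ENSG00000112715, chr6:43770184-43786487, plus strand, 8 exons in its canonical transcript) was higher after MBZ in both lines. It had 4093 counts under DMSO and 5711 under MBZ in MDA-MB-231, and 6532 and 18670 in SUM159. In CPM, the level stood at 180.3 and 304 in MDA-MB-231 and at 388 and 889.7 in SUM159, so that both SUM159 libraries lay above both MDA-MB-231 libraries. The level was 1.69-fold higher under MBZ in MDA-MB-231 and 2.30-fold higher in SUM159. On the log2 scale the difference in SUM159 exceeded that in MDA-MB-231 by 0.45 (95% counting interval 0.37 to 0.52). Ranges in parentheses after a value are such intervals. VEGFA shares 188 exonic bases, 1.30% of its exonic length, with a lncRNA on the opposite strand (ENSG00000272114) that had 0 counts in all 4 libraries. Whether counting used the strand is not given in the sources used here.

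VEGFB (ENSG00000173511, chr11:64234584-64239264, plus strand, 7 exons), which signals through FLT1 and is linked to the survival of vessels and to lipid handling more than to sprouting, was lower after MBZ in both lines. Its counts were 2410 under DMSO and 1273 under MBZ in MDA-MB-231, and 2250 and 1246 in SUM159. The level went from 106 to 67.7 CPM in MDA-MB-231 and from 134 to 59.4 CPM in SUM159, which placed both MBZ libraries below both DMSO libraries. The log2 fold change was -0.65 (-0.75 to -0.55) in MDA-MB-231 and -1.17 (-1.27 to -1.07) in SUM159, and was 0.52 lower in SUM159 (difference -0.52, interval -0.66 to -0.38). With libraries scaled by their total counts in place of TMM, the value in MDA-MB-231 was -0.38 and no longer reached 1.5-fold. As VEGFA and VEGFB stood apart in opposite directions, the number of VEGFA reads per VEGFB read went from 1.70 (1.62 to 1.79) to 4.49 (4.22 to 4.77) in MDA-MB-231 and from 2.90 (2.77 to 3.05) to 15.0 (14.2 to 15.9) in SUM159. This ratio is taken within a library and does not depend on the scaling.

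VEGFC (ENSG00000150630, chr4:176683538-176792922, minus strand, 7 exons), the ligand of FLT4 on lymphatic endothelium, was higher after MBZ in both lines by a like amount. MDA-MB-231 had 1393 counts under DMSO and 1909 under MBZ, and SUM159 had 338 and 620. The level went from 61.3 to 101.6 CPM in MDA-MB-231 and from 20.1 to 29.5 CPM in SUM159, and both SUM159 libraries lay below both MDA-MB-231 libraries. The log2 fold change was 0.73 (0.63 to 0.83) in MDA-MB-231. In SUM159 it was 0.56 (0.37 to 0.75), which is 1.47-fold and just under the fold required. The difference between the lines was -0.17 (-0.38 to 0.05). With total-count scaling, the SUM159 value was 0.86 and passed 1.5-fold.

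PGF (ENSG00000119630, chr14:74941834-74955626, minus strand, 7 exons), the placental growth factor that binds FLT1, was lower after MBZ in MDA-MB-231 alone among the 2 lines at the fold used. It had 573 counts under DMSO and 131 under MBZ in MDA-MB-231, or 25.2 and 6.97 CPM. SUM159 had 88 and 107 counts, or 5.22 and 5.10 CPM, so that MBZ-treated MDA-MB-231 came near the level that SUM159 had under either treatment. The level in MDA-MB-231 was 3.62-fold lower (log2 fold change -1.86, interval -2.14 to -1.58), and the log2 fold change in SUM159 was -0.03 (-0.45 to 0.39). The interval of the difference between the lines, 1.33 to 2.31 around 1.82, did not include 0. VEGFA reads per PGF read went from 7.14 to 43.6 in MDA-MB-231 and from 74.2 to 174.5 in SUM159.

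**Figure D1:**
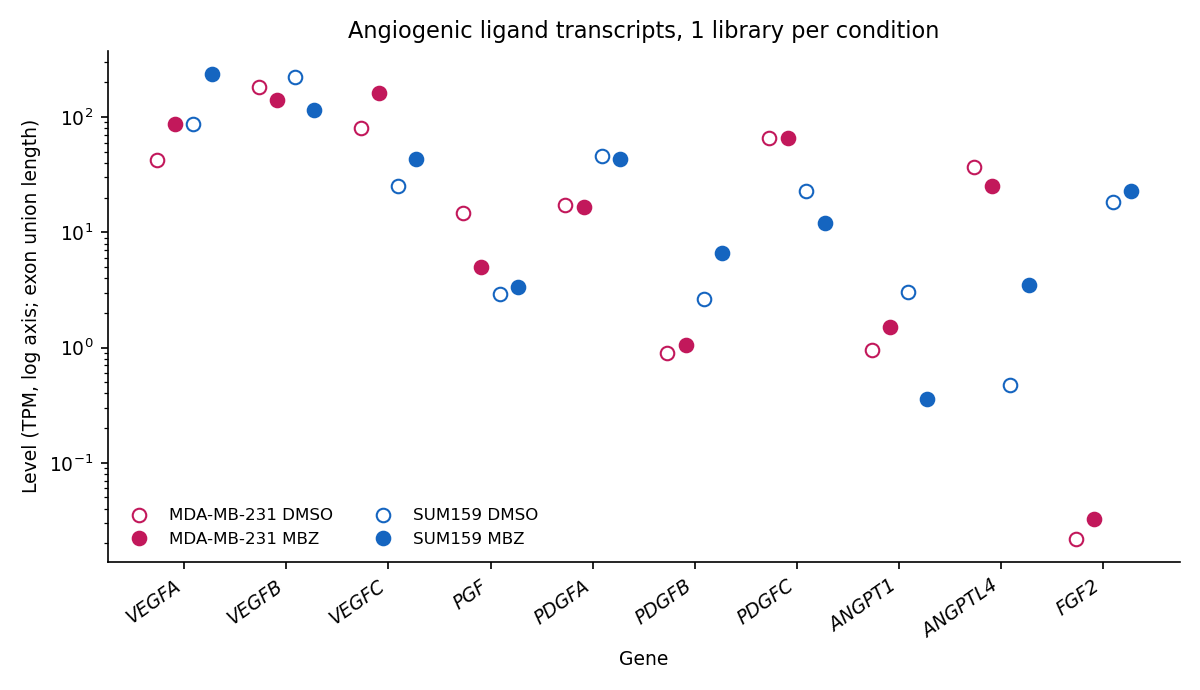
Level of each ligand in each library, in TPM (transcripts by length and library size, log axis), from the length of all exons of a gene. Open circles are DMSO and filled circles MBZ, in red for MDA-MB-231 and blue for SUM159, with 1 library per point and no error. VEGFB had the highest point of both DMSO libraries (183 and 221 TPM), VEGFA that of the MBZ-treated SUM159 library (237 TPM), and FGF2 lay near 0 in both MDA-MB-231 libraries.

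Of the PDGF ligands, PDGFA (ENSG00000197461, chr7:497258-520296, minus strand, 6 exons), which acts on PDGFRA, had 534 counts under DMSO and 344 under MBZ in MDA-MB-231, and 1088 and 1083 in SUM159. In CPM these were 23.5 and 18.3, and 64.6 and 51.6. The log2 fold changes of -0.36 (-0.56 to -0.16) and -0.32 (-0.45 to -0.20) were alike and under 1.5-fold, with a difference between the lines of 0.04 (-0.19 to 0.27). Under total-count scaling both came nearer to 0, at -0.10 and -0.02.

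PDGFB (ENSG00000100311, chr22:39223359-39244982, minus strand, 7 exons), which acts on PDGFRB and recruits pericytes, was a low-count gene. It had 24 counts under DMSO and 19 under MBZ in MDA-MB-231, about 1 CPM in both libraries (1.06 and 1.01), and at this depth no difference was detectable (log2 fold change -0.06, interval -1.01 to 0.87). In SUM159 it had 54 and 144 counts, or 3.20 and 6.86 CPM, which is 2.14-fold higher under MBZ (log2 fold change 1.10, interval 0.64 to 1.58). The difference between the lines was 1.16 (0.18 to 2.14).

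PDGFC (ENSG00000145431, chr4:156760454-156971799, minus strand, 6 exons), a ligand of PDGFRA that is secreted in a latent form, went the other way in SUM159, from 706 to 394 counts and from 41.9 to 18.8 CPM. This was 2.23-fold lower (log2 fold change -1.16, interval -1.34 to -0.98). MDA-MB-231 had 2648 counts under DMSO and 1794 under MBZ, or 117 and 95.4 CPM, and a log2 fold change of -0.29 (-0.38 to -0.20), which with total counts was -0.02. The value in SUM159 was lower by a difference of -0.87 (-1.07 to -0.67). Within the PDGF family, PDGFA reads per PDGFC read stayed at 0.20 (0.18 to 0.22) under DMSO and 0.19 (0.17 to 0.22) under MBZ in MDA-MB-231, and went from 1.54 (1.40 to 1.70) to 2.75 (2.45 to 3.09) in SUM159. PDGFC thus had more reads than PDGFA in MDA-MB-231 and fewer in SUM159.

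ANGPTL4 (ENSG00000167772, chr19:8363289-8374370, plus strand, 7 exons), a secreted inhibitor of lipoprotein lipase that also acts on vessels and is a target of PPAR and of hypoxia-inducible factors, stood on opposite sides of its DMSO level in the 2 lines. In MDA-MB-231 it had 611 counts under DMSO and 284 under MBZ, or 26.9 and 15.1 CPM. In SUM159 it had 6 and 47 counts, or 0.36 and 2.24 CPM, so the level in MBZ-treated SUM159 was still below that of either MDA-MB-231 library. It was 1.78-fold lower in MDA-MB-231 (log2 fold change -0.83, interval -1.04 to -0.63) and 6.20-fold higher in SUM159 (log2 fold change 2.63, interval 1.42 to 4.17), the latter from 6 counts. The difference between the lines was 3.46 (2.22 to 4.71). With total-count scaling the value in MDA-MB-231 was -0.57, just under 1.5-fold.

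ANGPT1 (ENSG00000154188, chr8:107249482-107498055, minus strand, 9 exons), the agonist of the endothelial receptor TEK, had 111 counts under DMSO and 14 under MBZ in SUM159, or 6.59 and 0.67 CPM. Its log2 fold change of -3.29 (-4.22 to -2.50), 9.79-fold lower, was the largest in size among the ligands compared in either line. MDA-MB-231 had 45 and 49 counts, or 1.98 and 2.61 CPM, with a log2 fold change of 0.39 (-0.22 to 1.01). Under DMSO the level was higher in SUM159, and under MBZ it was higher in MDA-MB-231.

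FGF2 (ENSG00000138685, chr4:122826682-122898236, plus strand, 3 exons), the basic fibroblast growth factor, was counted almost entirely in SUM159. It had 1 count in each MDA-MB-231 library and was not compared there. SUM159 had 648 counts under DMSO and 841 under MBZ, or 38.4 and 40.1 CPM, with a log2 fold change of 0.06 (-0.09 to 0.21). FGF2 shares 804 exonic bases, 11.8% of its exonic length, with NUDT6 on the opposite strand, which had 64 to 145 counts in the 4 libraries, so part of either count could not be assigned without the strand. In MDA-MB-231 NUDT6 had 126 and 145 counts.

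**Figure D2:**
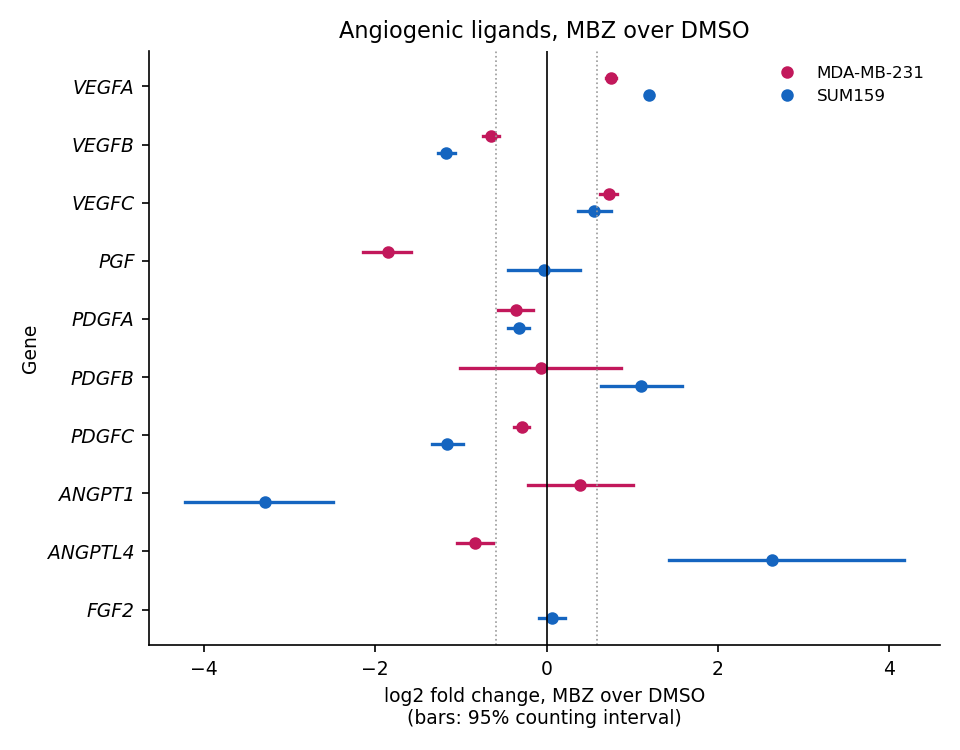
Log2 fold change of MBZ over DMSO for each ligand in MDA-MB-231 (red) and SUM159 (blue). Bars are 95% counting intervals from 1 library per condition, dotted lines mark 1.5-fold, and FGF2 was not compared in MDA-MB-231. VEGFA lies right and VEGFB left of 0 in both lines, and ANGPTL4 lies at -0.83 in one and at 2.63 in the other.

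In MDA-MB-231, 9 of the 10 ligands could be compared, and FGF2 could not. At 1.5-fold, 2 were higher (VEGFA and VEGFC) and 3 lower (VEGFB, PGF and ANGPTL4). Among all genes compared, 18.3% were higher and 15.8% lower in the same line. The median log2 fold change was -0.29 over the 9 ligands and -0.02 over all genes. In SUM159, all 10 were compared, of which 3 were higher (VEGFA, PDGFB and ANGPTL4) and 3 lower (VEGFB, PDGFC and ANGPT1), where 21.5% of all genes were higher and 21.7% lower. The median was 0.01 over the ligands and -0.03 over all genes. Total-count scaling moved the all-gene median by 0.27 in MDA-MB-231 and by 0.30 in SUM159. Under it, the shares of genes called higher and lower were 29.1% and 7.57% in MDA-MB-231, against 32.8% and 12.8% in SUM159. The ligands then divided into 3 higher and 1 lower in MDA-MB-231, and into 4 higher and 3 lower in SUM159. The ligands called made up 22.2% (higher) and 33.3% (lower) of those compared in MDA-MB-231 and 30.0% each way in SUM159. Nothing particular to the ligands is read from such counts over 9 or 10 genes.

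Of the 9 ligands compared in both lines, VEGFA was higher in both, as were 6.12% of all genes compared in both, and VEGFB was lower in both, as were 4.71%. ANGPTL4 passed 1.5-fold in opposite directions, as did 6.04%. The other 6 passed it in at most 1 line.

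**Figure D3:**
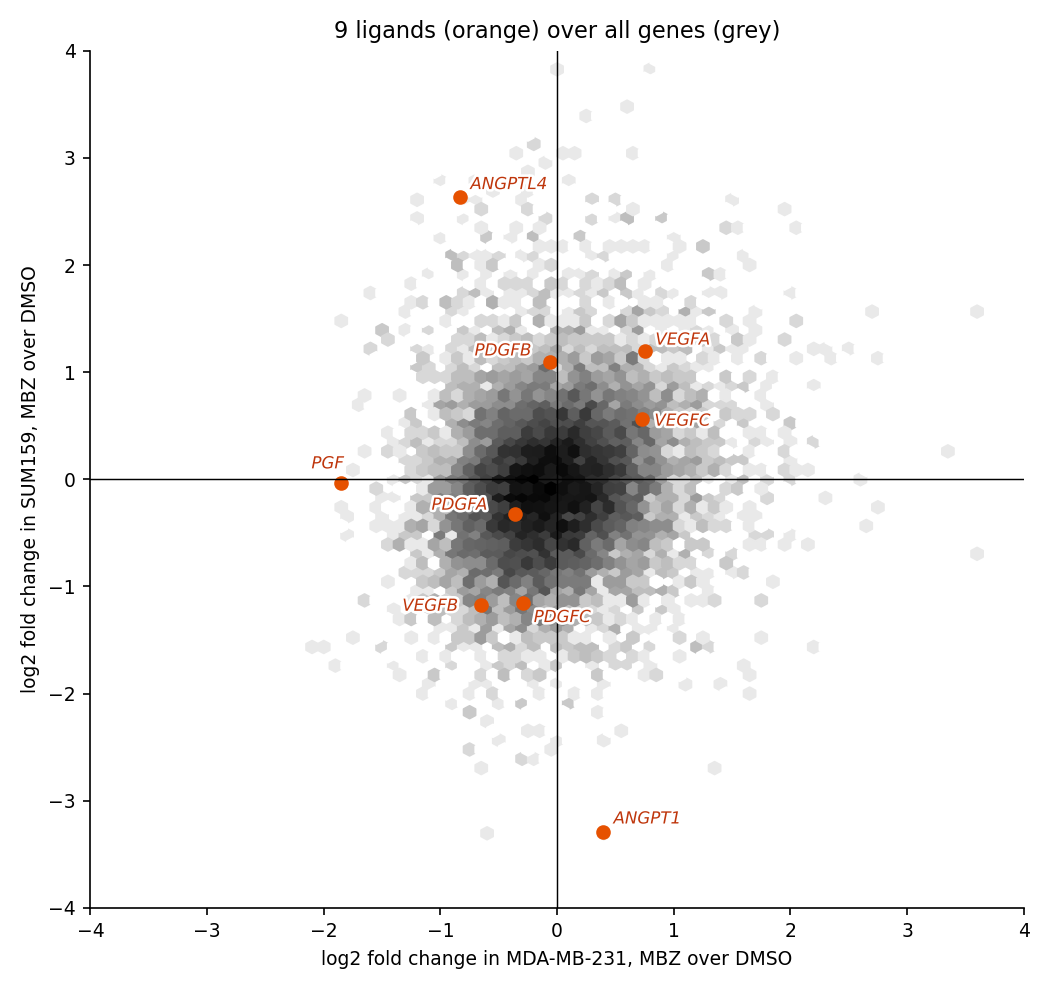
Log2 fold change of MBZ over DMSO in MDA-MB-231 (x axis) against SUM159 (y axis) for the 9 ligands compared in both lines (orange) and all 13733 genes compared in both (grey hexagons, darker where more genes lie, on a log scale of density). The axes end at 4 in size on either side, with 116 genes beyond them. VEGFA (0.75 and 1.20) lies in the upper right, VEGFB (-0.65 and -1.17) in the lower left and ANGPTL4 (-0.83 and 2.63) in the upper left.

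A change alike in both lines was tested with edgeR's quasi-likelihood test, with cell line and treatment as terms, over 16100 genes. In this test the spread comes from how far the responses of the 2 lines lie apart, moderated over all genes. The SE of a gene is thus not the gap between its own 2 responses. For PDGFA that gap was 0.04 and the SE 0.28. No ligand of the 10 passed an adjusted p of 0.05, nor did any with DESeq2, in which 1 was higher and 1 lower at an unadjusted p under 0.05, beside 2.09% and 3.44% of all genes. Of all genes tested, 0.00621% passed as higher and 0% as lower. At an unadjusted p under 0.05, VEGFA and VEGFC were higher and VEGFB lower, while 3.91% of all genes were higher and 3.24% lower at that level. The shared log2 fold change of VEGFA was 1.01 ± 0.35 (SE, adjusted p = 0.624, edgeR quasi-likelihood test with Benjamini-Hochberg adjustment), and its adjusted p was between 0.264 and 1.00 under the alternatives tried. VEGFB had -0.87 ± 0.30 (SE, adjusted p = 0.624 in the same edgeR test) and VEGFC 0.68 ± 0.27 (SE, adjusted p = 0.683 in the same edgeR test). The adjusted p of the other 7 lay between 0.714 and 0.970 in that test. Among them, FGF2 had 1 count in each MDA-MB-231 library. Its value thus comes almost wholly from SUM159 and shows nothing on a change alike in both lines.

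The lines differed in the ligands they transcribed under DMSO. There, 5 ligands were at least 1.5-fold higher in SUM159 than in MDA-MB-231, against 31% of all genes compared, and 4 were lower, against 30.6%. VEGFA (log2 difference 1.16, interval 1.11 to 1.22), PDGFA (1.52, interval 1.36 to 1.67), PDGFB (1.65, interval 0.94 to 2.42), ANGPT1 (1.79, interval 1.28 to 2.32) and FGF2 were higher in SUM159. For FGF2 the log2 difference was 9.63 (7.35 to 15.1), with 1 count in MDA-MB-231. ANGPTL4 was lower in SUM159 by a log2 difference of -6.16 (-7.63 to -5.05), PGF by -2.21 (-2.55 to -1.89), VEGFC by -1.55 (-1.73 to -1.38) and PDGFC by -1.42 (-1.54 to -1.30). VEGFB differed by 0.39 (0.31 to 0.47), under 1.5-fold.

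Levels were compared between ligands per length, in TPM. The TPM of the 10 ligands summed to 442 under DMSO and 504 under MBZ in MDA-MB-231, and to 430.0 and 488 in SUM159, with lengths over all exons. With canonical transcripts the sums were 380.2 and 485 in MDA-MB-231, and 418 and 713 in SUM159. Over all exons, VEGFA made up 9.60% of that sum under DMSO and 17.2% under MBZ in MDA-MB-231, and 20.4% and 48.6% in SUM159. VEGFB made up 41.4% and 28.2% in MDA-MB-231, and 51.4% and 23.7% in SUM159. It ranked first of the 10 in both DMSO libraries and second in both MBZ libraries. VEGFC ranked first in MBZ-treated MDA-MB-231, with 31.8% of the sum, and VEGFA in MBZ-treated SUM159. VEGFA has 14431 bases over all annotated exons and 3609 in its canonical transcript, and the shares depend on which length is used. With canonical transcripts, VEGFA made up 25.0% under DMSO and 40.6% under MBZ in MDA-MB-231, and 45.8% and 75.3% in SUM159, and ranked second in the DMSO-treated MDA-MB-231 library and first in the other 3. By either length its share was larger in the MBZ library of each line.

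**Figure D4:**
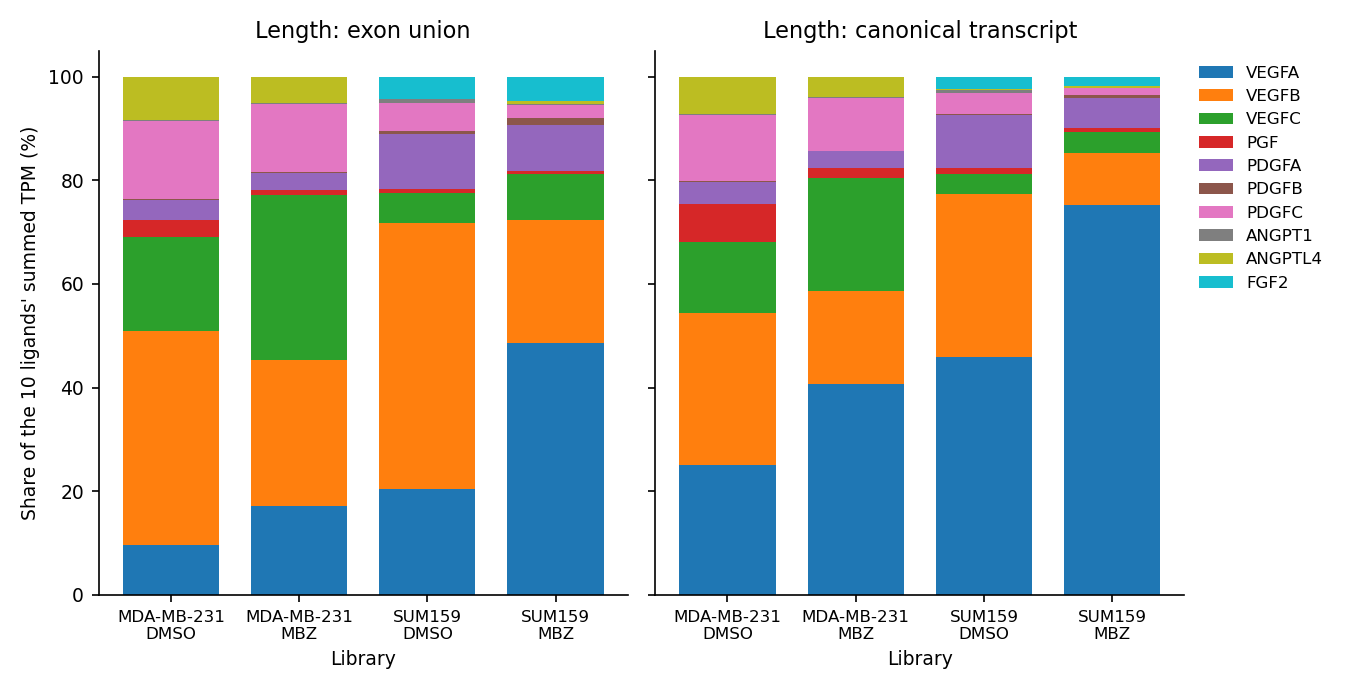
Share of each ligand in the summed TPM of the 10 ligands (y axis, percent) in each of the 4 libraries, with gene length taken over all exons (left) or over the canonical transcript (right). The share of VEGFA grows from DMSO to MBZ in each line and that of VEGFB shrinks: over all exons in SUM159, VEGFA goes from 20.4% to 48.6% and VEGFB from 51.4% to 23.7%.

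The genes with the pattern over the 4 libraries most like that of each ligand were sought among the 11152 genes whose mean reached 100 counts, by the distance between log2 CPM centred on each gene's mean. With 4 libraries, such likeness is a description. VEGFA was nearest to STEAP1 (distance 0.12), ABCG2 (0.15) and ZMIZ1-AS1 (0.19). VEGFB was nearest to ZNF428 (0.04), followed by C1orf198 and IQSEC1 (both 0.13), and VEGFC to TLE1 (0.13), CDC14A and FAM107B. PDGFA was nearest to PSMB8 (0.12), JADE3 and ANGEL1, and PDGFC to AASS, CHMP3 and LPAR1 (each 0.15). ANGPTL4 was nearest to EPHB3 (0.19), which had 261 and 135 counts in MDA-MB-231 and 3 and 21 in SUM159, and then to STARD8 (0.43) and CCN2 (0.53). FGF2 was nearest to NETO2 (0.20), which had 2 counts in each MDA-MB-231 library, and then to TMTC1 (0.72) and WDR72 (0.73). The genes nearest to PGF (GSN, TOX2 and NET1) lay at 0.49 to 0.53. PDGFB and ANGPT1 fell below the count minimum and were left out.

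The receptors of these ligands were taken from a list of 13. In MDA-MB-231, 7 could be compared, of which 2 were higher and 2 lower, and the median log2 fold change was -0.16, which total-count scaling turned to 0.11, with 3 higher and 0 lower. The shares of all genes called higher and lower there were 18.3% and 15.8% (29.1% and 7.57% under total counts), with a median of -0.02. In SUM159, 10 were compared, 4 higher and 2 lower, with a median of 0.07, or of 0.37 under that scaling, beside all-gene shares of 21.5% and 21.7% (32.8% and 12.8% under total counts) and a median of -0.03. None passed an adjusted p of 0.05 in the edgeR quasi-likelihood test of a change alike in both lines or with DESeq2. At an unadjusted p under 0.05 with edgeR, 1 was higher and 2 lower (PDGFRA and PDGFRB), beside 3.91% and 3.24% of all genes. PDGFRA had 0 counts in both MDA-MB-231 libraries, so its value comes from SUM159 alone and shows nothing on a change alike in both lines. Keeping every gene with at least 1 count in the edgeR test brought PDGFRA and PDGFRB below an adjusted p of 0.05 as lower, as it did 0.449% of all genes, and for PDGFRA the same limit holds.

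Of the VEGF receptors, FLT1 had at most 6 counts in any library, and FLT4 had 0 counts in MDA-MB-231 and 10 and 14 in SUM159. KDR, the main signalling receptor of VEGFA, had 65 counts under DMSO and 76 under MBZ in MDA-MB-231, with a log2 fold change of 0.50 (0.00 to 1.00). In SUM159 it had 2 and 20 counts, a log2 ratio of 2.94 (0.96 to 6.15) from 2 counts. The co-receptor NRP1 had 12583 and 9356 counts in MDA-MB-231 and 6067 and 6534 in SUM159, and its log2 fold changes were -0.16 and -0.21. NRP2, the co-receptor that binds VEGFC, had 287 and 445 counts in MDA-MB-231 and 85 and 366 in SUM159. Its log2 fold changes were 0.90 (0.69 to 1.12) and 1.79 (1.45 to 2.15), and the shared change was 1.38 ± 0.41 (SE, adjusted p = 0.591, edgeR quasi-likelihood test with Benjamini-Hochberg adjustment). NRP2 and VEGFC were thus both more counted under MBZ in each line.

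PDGFRA, the receptor of PDGFA and PDGFC, had 0 counts in both MDA-MB-231 libraries. In SUM159 it had 1026 counts under DMSO and 306 under MBZ, a log2 fold change of -2.06 (-2.25 to -1.88). PDGFRB, the receptor of PDGFB, had 2235 counts under DMSO and 281 under MBZ in SUM159, a log2 fold change of -3.31 (-3.49 to -3.13), and 138 and 74 counts in MDA-MB-231, a log2 fold change of -0.63 (-1.05 to -0.21). With total-count scaling neither PDGFRB nor FGFR3 reached 1.5-fold in MDA-MB-231. PDGFRB reads per PDGFA read went from 2.05 (1.91 to 2.21) to 0.26 (0.23 to 0.30) in SUM159. In the edgeR quasi-likelihood test, the shared change of PDGFRB was -1.99 ± 0.65 (SE, adjusted p = 0.609). PDGFRB is also carried by pericytes and smooth muscle cells, and the summed level of 4 other mural markers went from 121 to 50.9 CPM in SUM159 and from 94.2 to 96.8 CPM in MDA-MB-231. In SUM159 most of that difference was NOTCH3, with 1150 and 272 counts (68.2 and 13.0 CPM), while MCAM had 861 and 751, RGS5 21 and 36 and DES 3 and 9. The leukocyte marker PTPRC had 216 and 60 counts in SUM159 and 8 and 23 in MDA-MB-231. The RNA came from the 2 lines in culture, so counts of these markers need not stand for other cell types. The part of these markers in the result was not tested. Fewer cells carrying a transcript and less of it per cell cannot be told apart.

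TEK, the receptor of ANGPT1, had 4 to 6 counts in every library, and TIE1, its partner, 2 to 52. Of the receptors of FGF2, FGFR1 had 4139 and 2388 counts in MDA-MB-231 (log2 fold change -0.52, interval -0.59 to -0.45) and 2117 and 2572 in SUM159 (log2 fold change -0.04, interval -0.12 to 0.05). FGFR2 had at most 2 counts. FGFR3 had 106 and 51 counts in MDA-MB-231 and 11 and 45 in SUM159, with log2 fold changes of -0.78 (-1.29 to -0.29) and 1.71 (0.74 to 2.82). FGFR4 had 31 and 52 counts, and 23 and 21, with log2 fold changes of 1.02 (0.35 to 1.71) and -0.45 (-1.37 to 0.47).

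Enzymes that process these ligands and proteoglycans that store or release them formed a list of 14. In MDA-MB-231, 11 could be compared, of which 3 were higher and 2 lower, and the median log2 fold change was -0.16, which total-count scaling turned to 0.11. In SUM159, 12 were compared, 1 higher and 4 lower, with a median of -0.05, which that scaling turned to 0.26, with 5 higher and 4 lower. The all-gene shares are those given for the receptors. None passed an adjusted p of 0.05 in the edgeR quasi-likelihood test or with DESeq2. At an unadjusted p under 0.05 with edgeR, 1 was higher, beside 3.91% of all genes. That gene was PCSK5, which had at most 14 counts in any library.

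VEGFC is cut to its active form by proprotein convertases and by ADAMTS3 with the help of CCBE1. Of the convertases, FURIN had 1398 counts under DMSO and 787 under MBZ in MDA-MB-231 (log2 fold change -0.56) and 3830 and 4971 in SUM159 (0.06). PCSK5 had 2 and 14 counts, and 0 and 13. PCSK6 was counted mainly in SUM159, with 1415 and 818 counts (log2 fold change -1.11, interval -1.23 to -0.98) against 6 and 8 in MDA-MB-231. PCSK7 had log2 fold changes of -0.16 (-0.29 to -0.02) in MDA-MB-231, which total-count scaling turned to 0.11 (-0.03 to 0.25), and of 0.42 (0.24 to 0.60) in SUM159. ADAMTS3 had 74 and 42 counts in MDA-MB-231 and 28 and 16 in SUM159, with log2 fold changes of -0.54 (-1.13 to 0.02) and -1.12 (-2.11 to -0.19). CCBE1 had 121 and 254 counts in SUM159 (log2 fold change 0.75, interval 0.44 to 1.08) and 8 and 10 in MDA-MB-231.

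PLAT, the tissue plasminogen activator, which activates latent PDGFC, had 4368 and 5792 counts in MDA-MB-231 and 2227 and 3884 in SUM159. Its log2 fold changes were 0.68 (0.62 to 0.74) and 0.49 (0.41 to 0.56), and those of PLAU, the urokinase, were 0.14 and 0.47. PDGFC itself had log2 fold changes of -0.29 and -1.16. Heparan sulphate binds FGF2 and the longer forms of VEGFA and PDGFA. HSPG2, the basement membrane proteoglycan perlecan, had 4258 and 3301 counts in MDA-MB-231 (log2 fold change -0.09, interval -0.16 to -0.03) and 7064 and 3541 in SUM159 (-1.31, interval -1.37 to -1.25). HPSE, the heparanase, had log2 fold changes of -0.27 and -0.98. The cell-surface proteoglycan GPC1 had 1495 and 517 counts in MDA-MB-231 (log2 fold change -1.26, interval -1.41 to -1.11) and 5510 and 5224 in SUM159 (-0.39, interval -0.45 to -0.34). SDC1 had log2 fold changes of -0.78 and -0.15, and SDC4 of 0.63 and 0.43. FGFBP1, which carries FGF2 out of the matrix, had 10 and 17 counts in MDA-MB-231 and at most 1 in SUM159.

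**Figure D5:**
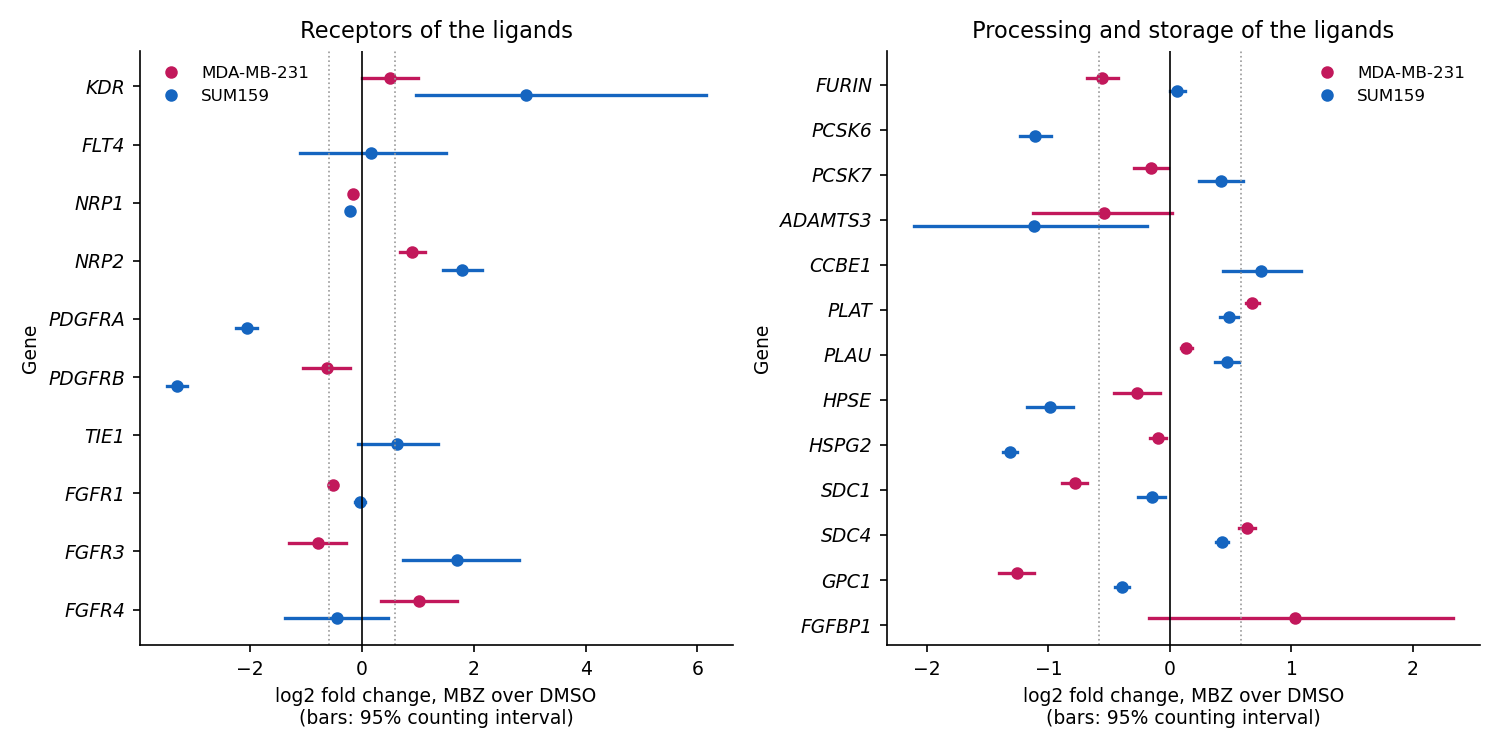
Log2 fold change of MBZ over DMSO for the receptors of the ligands (left) and for genes of their processing and storage (right), in MDA-MB-231 (red) and SUM159 (blue), for genes whose mean in the line reached 10 counts. Bars are 95% counting intervals from 1 library per condition and dotted lines mark 1.5-fold. PDGFRB (-3.31) and PDGFRA (-2.06) lie farthest left and KDR (2.94, from 2 counts) farthest right, all in SUM159.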

How the data were processed

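Poly-A RNA of 4 samples was sequenced as paired ends. The authors mapped reads with STAR 2.5 to GRCh38 and counted them per gene with HTSeq 0.6.1 (union mode), and the deposited values are raw counts per gene. The annotation release and strand setting are not given in the sources used here, nor whether a library stands for 1 culture or several. Symbols were matched by identifier for 58207 of 58735 genes. Within each line, edgeR 4.0.16 (R 4.3.3) gave fold changes from log2 CPM (prior count 0.125) after TMM scaling of the pair. For each fold a 95% Clopper-Pearson interval was taken from the share of a gene's reads in 1 of 2 libraries. A fold is not reported where both libraries had 3 or fewer counts. A change shared by the lines was tested by edgeR's quasi-likelihood method (filterByExpr, TMM over 4 libraries, Benjamini-Hochberg adjustment), with DESeq2 1.42.0 as an alternative. TPM, positions, exon numbers and overlaps use GENCODE release 44 on GRCh38, which may differ from the authors' annotation. TPM is scaled to the sum of all genes without TMM. Scripts were tested on simulated data. Named are all 10 ligands, their receptors and processing genes, up to 4 of the most counted genes of each other list, 3 nearest genes per ligand, and overlapping genes. Marker genes were named as checks, and CA9, ADAMTS1, EGLN3 and PPARG after their values were seen. The ligands and lists were chosen with earlier results of these data known. Alternatives were other scalings, count minimums, prior counts, folds, models and gene lengths.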

Additional observations from a re-analysis of the deposited data

Results flagged for a closer look

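Among the ligands, their receptors and the processing genes, 26 could be compared in both lines, and ANGPTL4, FGFR3 and PCSK7 were picked out because their counting intervals lay on opposite sides of 0 in the 2 lines. That is 11.5%, beside 20.0% of all 13733 genes compared in both lines, and the other lists were not searched. With 1 library per condition, the difference in response between the lines was not tested beyond counting error. The log2 fold change of ANGPTL4 was -0.83 in MDA-MB-231 and 2.63 in SUM159. That of FGFR3, a receptor of FGF ligands, was -0.78 in MDA-MB-231 and 1.71 in SUM159. That of PCSK7, a proprotein convertase, was -0.16 in MDA-MB-231 and 0.42 in SUM159. Under total-count scaling the value of PCSK7 in MDA-MB-231 was 0.11 (counting interval -0.03 to 0.25), so that its intervals no longer lay on opposite sides of 0. Those of ANGPTL4 and FGFR3 still did, with values in MDA-MB-231 of -0.57 (-0.78 to -0.36) and -0.52 (-1.03 to -0.02).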

How the results depend on the processing

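Scaling by DESeq2 size factors or by TMM over 4 libraries, and a prior count of 2, kept the direction and size of each ligand's values within their counting intervals. Total-count scaling moved 13 of 29 values beyond them and left 16 within. The 29 include the differences between the lines under DMSO, of which VEGFA alone moved. The other values that moved were fold changes of MBZ over DMSO. They were those of VEGFA, VEGFB, VEGFC, PDGFA and PDGFC in both lines, ANGPTL4 in MDA-MB-231 and FGF2 in SUM159. In MDA-MB-231 the number of ligands called higher went from 2 to 0 with a fold of 2, and that called lower went from 3 to 1 with total counts, to 1 with a fold of 2 and to 5 when called by a counting interval that excludes a fold of 1, which was chosen after seeing the data. In SUM159 the number called higher went from 3 to 1 with a mean of at least 100 counts. In the test over all genes, 1 gene was higher and 0 lower (629 and 521 at an unadjusted p under 0.05). DESeq2 gave 42 and 56, keeping every gene with at least 1 count gave 153 and 145, and a model with no cell line gave 0 genes higher. DESeq2 left 2810 adjusted p values as NA. The shared log2 fold change of ANGPTL4 went from 0.55 to -0.60 with no cell line in the model, and the cause was not tested. The share of VEGFA in the summed TPM was 25.0%, 40.6%, 45.8% and 75.3% with canonical transcripts, against 9.60%, 17.2%, 20.4% and 48.6% over all exons, since its canonical transcript is the shorter. Depth limits PDGFB and ANGPT1 in MDA-MB-231 and ANGPTL4 and KDR in SUM159. No pairing by replicate was possible because each condition has 1 library, and 1 replicate number gives no block. The shared test sets MBZ against DMSO within each line through its term for cell line.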

Other observations

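For the counts below, the shares of all genes called higher and lower were 18.3% and 15.8% in MDA-MB-231, and 21.5% and 21.7% in SUM159. Under total-count scaling they were 29.1% and 7.57% in MDA-MB-231 (median log2 fold change of all genes 0.25), and 32.8% and 12.8% in SUM159 (median 0.27). Of 12 secreted or intracellular inhibitors of vessel growth, 9 could be compared in MDA-MB-231, of which 4 were lower and 1 higher after MBZ (median log2 fold change -0.56, against -0.02 over all genes, or -0.29 against 0.25 under total-count scaling). In SUM159 8 of 11 were lower and none higher (median -1.13, against -0.03 over all genes), and under total-count scaling 6 were lower and 1 higher (median -0.83, against 0.27). TIMP3, an inhibitor of metalloproteinases that also binds KDR, had 48117 counts under DMSO and 14299 under MBZ in MDA-MB-231 and 34258 and 18401 in SUM159. COL18A1, whose fragment is endostatin, had 6437 and 2447 counts in MDA-MB-231 and 7676 and 2471 in SUM159. The log2 fold changes were -1.48 and -1.21 for TIMP3 and -1.12 and -1.95 for COL18A1. These 2 passed an adjusted p of 0.05 for a change alike in both lines with DESeq2 (0.00648 and 0.0142), as did 0.348% of all genes in the lower direction, while with the edgeR quasi-likelihood test their adjusted p was 0.618 and 0.471, and 0.0548 and 0.00599 when that test kept every gene with at least 1 count, where 0.449% of all genes passed as lower. THBS1 had log2 fold changes of -0.06 and -1.30, and SEMA3F of -0.36 and -0.82. The inhibitor called higher in MDA-MB-231 was ADAMTS1, a secreted protease that binds VEGFA, with 127 and 509 counts (log2 fold change 2.27).

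Of 10 targets of hypoxia-inducible factors, 6 had log2 fold changes of opposite sign in the 2 lines, all lower in MDA-MB-231 and higher in SUM159, and 4 had the same sign. Of all genes compared in both lines, 21.5% were below 0 in MDA-MB-231 and above 0 in SUM159, and 56.3% had the same sign. In MDA-MB-231, 5 were lower and none higher at 1.5-fold (median log2 fold change -0.68), and in SUM159, 6 were higher and none lower (median 0.60). Under total-count scaling 4 were lower and 1 higher in MDA-MB-231 (median -0.42), and 8 higher and none lower in SUM159 (median 0.90). VEGFA, a target of the same factors, was higher in both lines. LDHA (-1.08 and 0.35), PGK1 (-1.11 and 0.59) and NDRG1 (-1.43 and 1.29) had log2 fold changes of opposite sign in MDA-MB-231 and SUM159, and SLC2A1 had 0.09 and 0.50. CA9 had 42 and 3 counts in MDA-MB-231 and 27 and 135 in SUM159, DMSO first. None of the 10 passed in the edgeR test of a change alike in both lines with an adjusted or an unadjusted p under 0.05, or with DESeq2. Whether the lines differed was not tested. Of 8 genes of the hypoxia-inducible factors and their regulators, 1 was lower and none higher in each line, EGLN3 being the one in both. Their median log2 fold changes of -0.22 and -0.27 turned to 0.04 and 0.03 under total-count scaling, and none was then lower. HIF1A had log2 fold changes of 0.16 and -0.38, EPAS1 of -0.02 and 0.17, VHL of -0.15 and -0.49 and HIF1AN of -0.40 and -0.17.

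Of 8 genes of PPAR signalling, which acts on ANGPTL4, 1 was lower in MDA-MB-231 (median log2 fold change -0.24, which total-count scaling turned to 0.03), and 4 were lower and 2 higher in SUM159 (median -0.64, or -0.33 with 3 lower and 3 higher under that scaling). RXRA, the partner of the PPARs, had log2 fold changes of -0.88 and -1.07, PPARD of -0.28 and -0.52, CPT1A of -0.32 and -0.98 and ACADVL of 0.11 and 0.45. PPARG had log2 fold changes of -0.29 and 0.62. Of 13 other angiogenic ligands, MDA-MB-231 had 2 higher and 1 lower among the 9 compared, and SUM159 had 3 higher and 2 lower among the 10 compared. Total-count scaling gave 3 higher and 1 lower in the former and 5 higher and 2 lower in the latter. HGF had 0 counts in both MDA-MB-231 libraries and went from 527 to 1788 in SUM159 (log2 fold change 1.45, interval 1.31 to 1.59). ADM had log2 fold changes of 0.51 and 1.10, JAG1 of -0.16 and -0.36 and EFNB2 of 0.05 and 0.45.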
